A study of Mus musculus with 6 samples.

Results

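The glycolysis and hypoxia genes described here are 35 named genes: glycolytic enzymes, glucose and lactate transporters, subunits and hydroxylases of the hypoxia-inducible factor (HIF) pathway, and genes that are induced when oxygen is low. They were taken from the deposited count table by their symbols, which gave 36 of its 26100 rows, because *Aldoa* is listed under a pair of Ensembl identifiers. All 36 rows were among the 16633 that passed the filter on low counts and were tested. The RNA came from lung tissue of 6 mice taken 14 days after bleomycin was instilled into the airways, 3 of them *Clec7a* knockout (KO) and 3 wild type (WT). Bleomycin damages DNA and injures the alveolar epithelium, after which the lung scars. *Clec7a* encodes dectin-1, a beta-glucan receptor of myeloid cells. Both genotypes had bleomycin, and lungs without it were not analysed here. The sources used here do not state the kind of *Clec7a* allele, the strain, or the sex and age of the mice.

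Glycolysis splits glucose into pyruvate. When oxygen is short, or when activated cells run the pathway fast, pyruvate is turned into lactate and exported. The HIF alpha subunits are hydroxylated by prolyl hydroxylases and degraded while oxygen is present. In hypoxia they persist, pair with ARNT and bind promoters of genes for glucose uptake, glycolysis, lactate export and collagen hydroxylation. Injured lung holds cell types with very different use of these genes. *Epas1*, which encodes HIF-2 alpha, is typical of endothelium, and activated macrophages are known for high glycolytic flux.

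*Clec7a* itself had 114, 230 and 92 counts in the KO libraries, against 1974, 2732 and 6734 counts in the WT libraries, so it was low in each library labelled KO. Libraries held between 31052936 and 34451956 counts. KO replicate 1 and WT replicate 1 were unlike the remaining 4 libraries, and unlike each other. Spearman's rho across tested genes, a description with genes as points, was 0.924 to 0.947 for pairs that included either of them and 0.959 to 0.992 for all other pairs. The counts of members, and a few single estimates, are therefore also given without both first replicates, an alternative chosen with the data known. Each library is a different mouse, and with 3 per genotype the precision is limited by the spread between mice more than by depth. Lung tissue mixes cell types, so fewer cells of a type and less RNA per cell cannot be told apart.

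Most of the members had lower estimates in KO lungs, but no single member passed the test over all genes. The log2 fold change (always KO minus WT) was negative for 29 of the 36 rows and positive for 7, whereas 51% of all genes tested were negative and 49% positive. Its median was -0.53 over the 36 rows and -0.01 over the whole table. By the quasi-likelihood test of edgeR, 0 members passed an adjusted p (Benjamini-Hochberg) of 0.05 in either direction. Among all genes likewise, 0% passed, and the smallest adjusted p of a member was 0.203. *Clec7a* itself did not pass, at a log2 fold change of -4.68 ± 0.61 (SE, edgeR adjusted p = 0.203). Failing this threshold therefore does not show that a gene was unchanged. At an unadjusted p under 0.05, 13 members were lower, where 5.89% of all genes were, and 1 was higher, where 5.95% of all genes were. The 3 KO values lay below all WT values for 14 members (11.3% of all genes) and above them for 2 (9.81% of all genes). DESeq2, run as an alternative, called 6 members lower at an adjusted p under 0.05 (1.73% of all genes): *Egln3*, *Pdk1*, *Slc16a3*, *Bnip3*, *Pkm* and *Eno1*. It called 0 members higher (1.91% of all genes), and it gave *Clec7a* an adjusted p of 1.52e-14. limma-voom called 0, and with sample weights it called 14 members lower (6.11% of all genes) and 0 higher (7.24% of all genes). Without both first replicates edgeR again called 0 members in either direction, 28 rows had negative estimates, and 18 members were lower at an unadjusted p under 0.05, when 14.7% of all genes were, and 4 were higher, when 15.3% of all genes were.

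**Figure D1:**
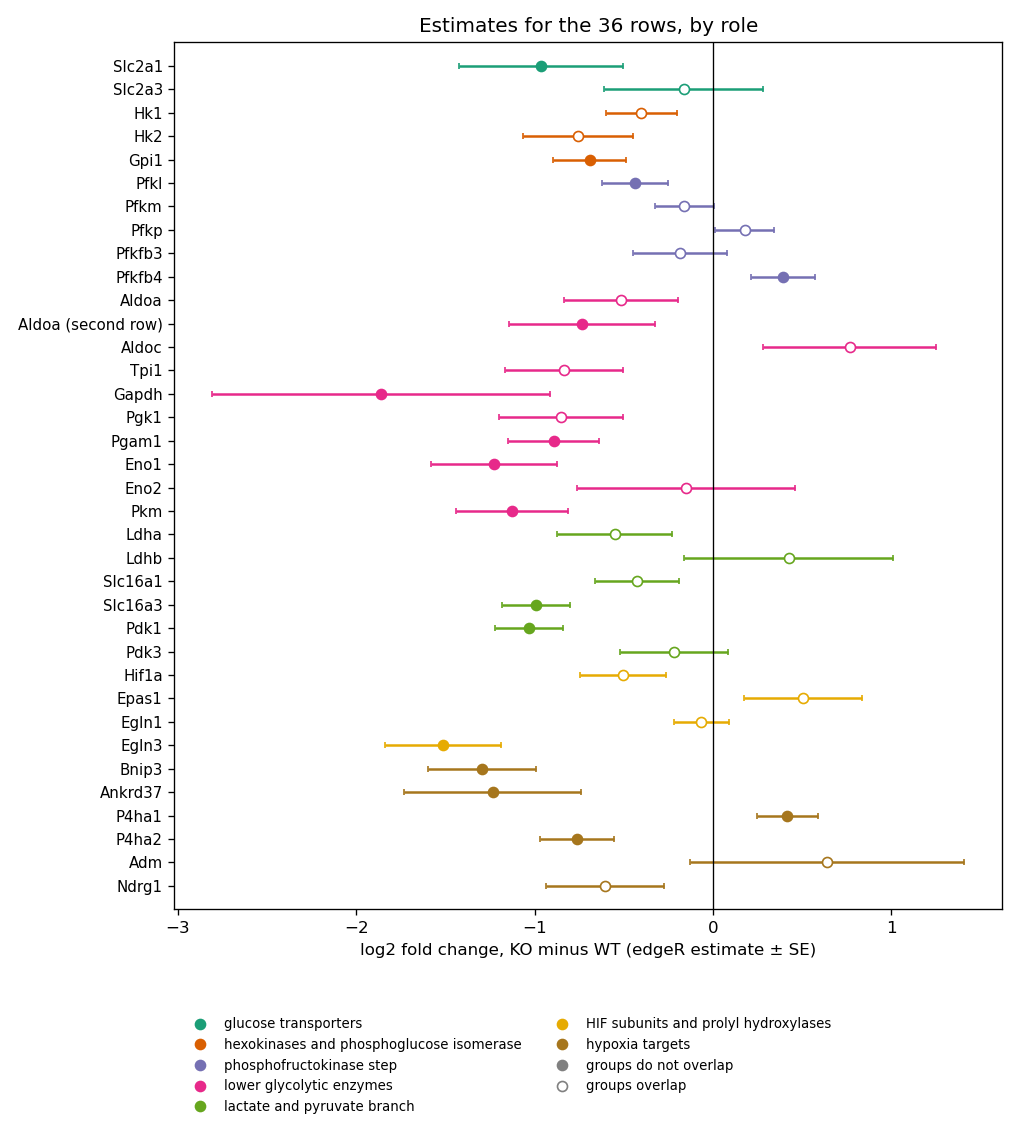
Log2 fold change, KO minus WT, with its standard error from edgeR for each of the 36 rows, coloured by role. Filled points mark rows whose 3 KO and 3 WT values do not overlap. 29 of the 36 points lie left of 0, the lowest being *Gapdh* at -1.86, followed by *Egln3* at -1.51.

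Glucose enters through facilitative transporters. *Slc2a1*, which encodes the widespread transporter GLUT1, had 16.9, 60.2 and 56.5 CPM (counts scaled to library size with TMM factors) in KO lungs, against 77.5, 99.9 and 83.1 CPM in WT lungs. Every KO value was below every WT value, and KO replicate 1 was far below the other KO lungs. The log2 fold change was -0.96 ± 0.46 (SE; edgeR adjusted p = 0.474), and it was -0.64 without both first replicates. *Slc2a3*, the high-affinity transporter GLUT3 of neurons and leukocytes, averaged 11.5 ± 3.56 CPM in KO and 12.9 ± 5.93 CPM in WT (SD, n = 3 each), a difference within the spread.

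The next 3 genes trap and isomerise glucose, and each had a negative estimate. *Gpi1*, the isomerase that makes fructose 6-phosphate, had 229, 249 and 201 CPM in KO lungs, against 424.5, 351 and 319.9 CPM in WT lungs. The genotypes did not overlap, and the log2 fold change was -0.69 ± 0.21 (unadjusted p 0.0129, edgeR adjusted p = 0.294). *Hk2*, the inducible hexokinase that traps glucose as its phosphate, had 27.8, 45.1 and 58.5 CPM in KO lungs, against 57.1, 84.5 and 80.4 CPM in WT lungs. KO replicate 3 exceeded WT replicate 1, so the groups overlapped slightly; the log2 fold change was -0.76 ± 0.31 (edgeR adjusted p = 0.418). The housekeeping hexokinase *Hk1* averaged 85.8 ± 12.9 CPM in KO and 113 ± 16.2 CPM in WT (SD, n = 3 each), and it also overlapped.

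The phosphofructokinase step, at which flux is controlled, did not move as a block. *Pfkl*, the liver-type subunit, had 68.9, 69.1 and 59.0 CPM in KO lungs, against 100.6, 92.8 and 73.0 CPM in WT lungs, with no overlap. Its log2 fold change was -0.44 ± 0.19 (edgeR adjusted p = 0.430). The platelet-type subunit *Pfkp* (0.18 ± 0.17) and the muscle-type subunit *Pfkm* (-0.16 ± 0.17) had log2 fold changes of about their error. *Pfkfb4*, one of the bifunctional enzymes that set fructose 2,6-bisphosphate, the activator of phosphofructokinase, went the other way. It had 51.1, 41.4 and 37.2 CPM in KO lungs, against 34.0, 31.3 and 33.7 CPM in WT lungs, with every KO value above every WT value (log2 fold change 0.39 ± 0.18, edgeR adjusted p = 0.461). *Pfkfb3*, the isoform with high kinase activity, had 69.1, 104 and 128 CPM in KO lungs, against 97.5, 129.8 and 115 CPM in WT lungs, and these overlapped (log2 fold change -0.19 ± 0.26).

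The enzymes of the second stage of glycolysis, from aldolase to pyruvate kinase, held the largest differences in abundant transcripts. Their 10 rows summed to 2263, 1708 and 1415 CPM in KO lungs, against 4689, 3129 and 2558 CPM in WT lungs, without overlap; the mean of the sums was 0.519 of WT. Of the 10 rows 9 had negative estimates (51% of all genes), 5 were lower at an unadjusted p under 0.05 (5.89% of all genes), and 5 had all KO values below all WT values (11.3% of all genes). Those without overlap were *Pkm*, *Eno1*, *Pgam1*, *Gapdh* and the second *Aldoa* row. The *Gapdh* row is uncertain, as described below, and the second *Aldoa* row held only 10 to 24 counts per library.

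*Pkm*, which encodes the pyruvate kinase that makes pyruvate, had 734, 593 and 486 CPM in KO lungs, against 1748, 1219.7 and 993 CPM in WT lungs. It was 2.18-fold lower in KO by the means, and the log2 fold change was -1.13 ± 0.31 (unadjusted p 0.00955, edgeR adjusted p = 0.269, DESeq2 adjusted p 0.0232). The table gives 1 count for the gene, so the PKM1 and PKM2 splice forms are not separated. *Eno1*, the enolase that makes phosphoenolpyruvate, had 336, 266 and 206.5 CPM in KO lungs, against 912, 548 and 430.25 CPM in WT lungs. The log2 fold change of *Eno1* was -1.23 ± 0.35 (edgeR adjusted p = 0.284, DESeq2 adjusted p 0.0411), and it was -0.86 without WT replicate 1. *Pgam1*, phosphoglycerate mutase, had 202, 163 and 138 CPM in KO lungs, against 395, 285 and 255 CPM in WT lungs. These 3 enzymes showed the same layout: no overlap, with WT replicate 1 highest of all.

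*Pgk1*, the first ATP-making kinase of the pathway, had 234, 154 and 137 CPM in KO lungs, against 452, 269 and 225 CPM in WT lungs. *Tpi1*, triose phosphate isomerase, had 174, 120.2 and 94.1 CPM in KO lungs, against 317.7, 202 and 173 CPM in WT lungs. For both, KO replicate 1 was just above WT replicate 3, so the groups overlapped at their edges (log2 fold changes -0.85 ± 0.35 and -0.84 ± 0.33, edgeR adjusted p = 0.416 and 0.407). Their estimates moved with WT replicate 1: without it they were -0.50 for *Pgk1* and -0.54 for *Tpi1*. The main row of *Aldoa*, the chief aldolase, averaged 424.3 ± 108 CPM in KO and 606 ± 197 CPM in WT (SD, n = 3 each) and overlapped, with a log2 fold change of -0.51 ± 0.32, and -0.22 without WT replicate 1. The second *Aldoa* row held 10, 17 and 15 counts in KO lungs, against 24, 23 and 24 in WT lungs, and lies directly upstream of the main one on chromosome 7.

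Some rows of this stage stood apart. *Gapdh*, glyceraldehyde 3-phosphate dehydrogenase, is normally among the most abundant transcripts of any tissue, yet its row had only 12.6, 12.8 and 1.08 CPM in KO lungs, against 22.6, 60.8 and 12.8 CPM in WT lungs. That is far below *Tpi1* and *Pgk1*, its neighbours in the pathway, and the highest KO and lowest WT libraries nearly touched (12.77 and 12.78 CPM). *Gapdh* has many processed copies in the mouse genome, and the sources used here do not state how shared reads were counted, so its estimate (-1.86 ± 0.95, edgeR adjusted p = 0.502) is not used as a level. *Aldoc*, the brain-type aldolase, stood at 20.9 CPM in KO replicate 1, against 8.13 and 6.94 CPM in the other KO lungs and 9.21, 6.52 and 5.43 CPM in WT lungs. Its log2 fold change was 0.77, and 0.096 without KO replicate 1. *Eno2*, the neuronal enolase, was low in all lungs, at 2.05 to 6.01 CPM in KO and 1.84 to 6.92 CPM in WT.

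**Figure D2:**
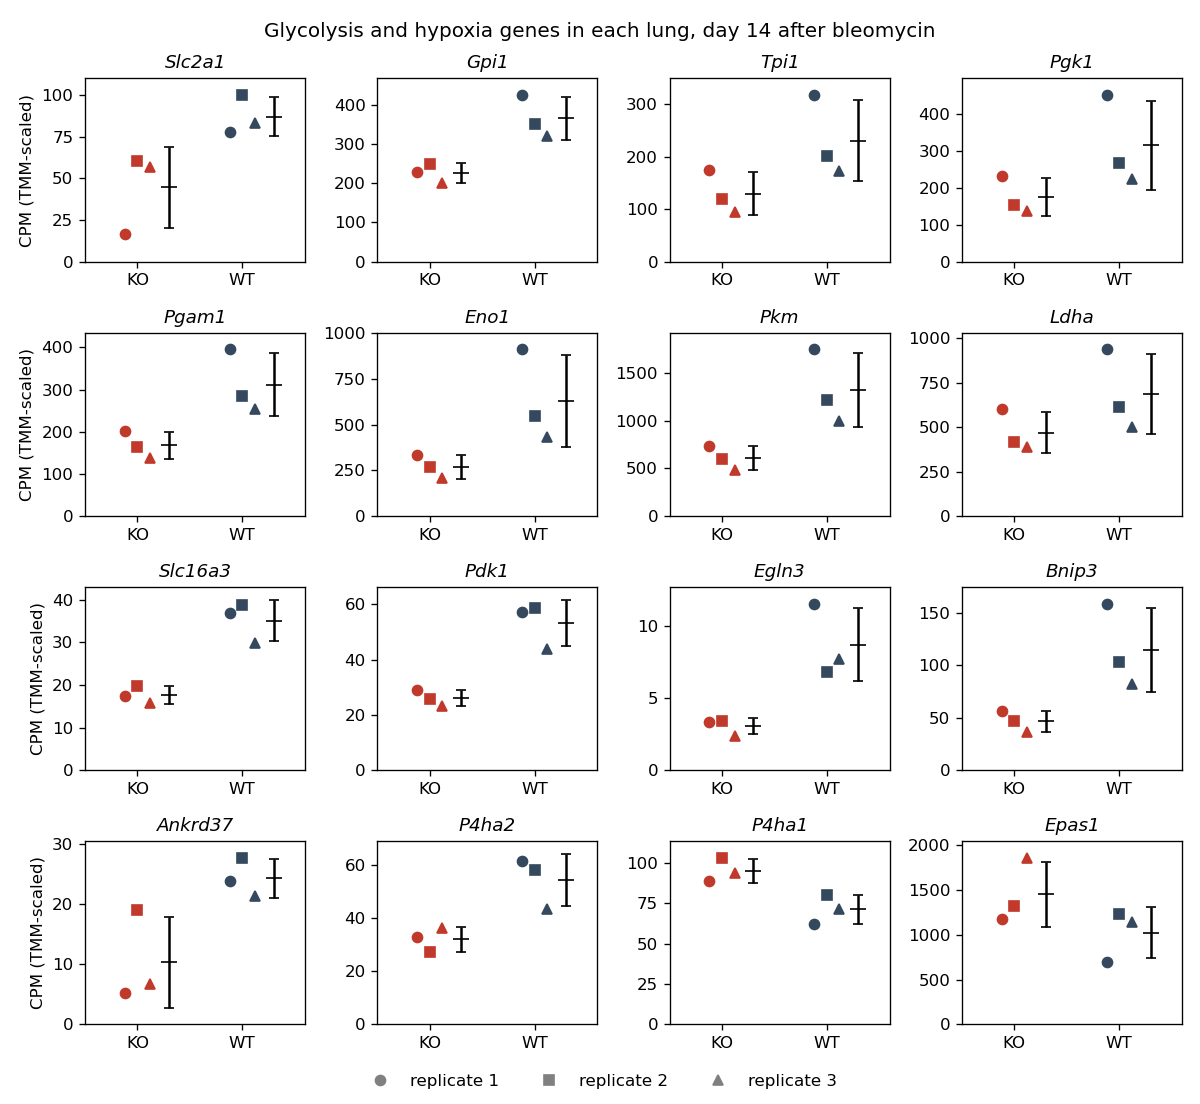
TMM-scaled CPM of 16 members in each of the 3 KO and 3 WT lungs, with the mean and SD beside the points and the replicate number as the symbol. *Slc16a3*, *Pdk1*, *Egln3*, *Bnip3*, *Pkm* and *Eno1* show all KO points below all WT points, *P4ha1* shows the reverse, and *Ldha* and *Epas1* overlap.

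Pyruvate can be reduced to lactate or burned in mitochondria. *Pdk1*, the kinase that shuts pyruvate dehydrogenase and so keeps pyruvate out of mitochondria, had 28.9, 25.7 and 23.2 CPM in KO lungs, against 57.1, 58.6 and 43.6 CPM in WT lungs. The spread within each genotype was narrow and the gap wide, 2.04-fold lower in KO, with a log2 fold change of -1.03 ± 0.19. Its unadjusted p of 0.00121 was the smallest of the members, with an edgeR adjusted p = 0.203 and a DESeq2 adjusted p of 0.00362. *Slc16a3*, the lactate exporter MCT4 of glycolytic cells, had 17.5, 19.8 and 15.7 CPM in KO lungs, against 36.8, 38.8 and 29.8 CPM in WT lungs. It was 1.99-fold lower in KO (log2 fold change -0.99 ± 0.19, edgeR adjusted p = 0.203, DESeq2 adjusted p 0.00420). Both genes kept these sizes with any 1 library left out, at -1.15 to -0.95 for *Pdk1* and -1.10 to -0.91 for *Slc16a3*.

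Other genes of this branch overlapped between the genotypes. *Ldha*, the lactate dehydrogenase subunit that favours lactate, had 599, 416 and 387 CPM in KO lungs, against 938, 613 and 503 CPM in WT lungs (log2 fold change -0.55 ± 0.32, and -0.26 without WT replicate 1). *Slc16a1*, the transporter MCT1, averaged 52.9 ± 12.6 CPM in KO and 71.0 ± 13.1 CPM in WT (SD, n = 3 each). *Pdk3*, another pyruvate dehydrogenase kinase, averaged 34.7 ± 13.2 CPM in KO and 40.3 ± 7.59 CPM in WT. *Ldhb*, the heart-type subunit, had a positive estimate of 0.42 ± 0.58, with KO values of 34.7 to 71.1 CPM inside the WT range of 22.1 to 82.2 CPM. Without WT replicate 1 the *Ldhb* estimate was 1.35.

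Of the HIF subunits, neither differed beyond the spread between lungs. *Epas1* had 1173, 1327 and 1862 CPM in KO lungs, against 700.4, 1229 and 1146 CPM in WT lungs, with a log2 fold change of 0.50 ± 0.33. *Hif1a*, the subunit found in nearly all cells, averaged 237 ± 37.6 CPM in KO and 336 ± 68.1 CPM in WT (SD, n = 3 each; log2 fold change -0.51 ± 0.24, edgeR adjusted p = 0.468). Their estimates went opposite ways. HIF protein is regulated mainly by degradation, which RNA counts do not read.

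The prolyl hydroxylases also differed from each other. *Egln3*, the hydroxylase PHD3 and itself a HIF target, had 3.32, 3.42 and 2.41 CPM in KO lungs, against 11.6, 6.82 and 7.70 CPM in WT lungs. It was 2.85-fold lower in KO without overlap (log2 fold change -1.51 ± 0.33, unadjusted p 0.00269, edgeR adjusted p = 0.232, DESeq2 adjusted p 0.00204). *Egln1*, the main oxygen-sensing hydroxylase PHD2, averaged 62.6 ± 4.58 CPM in KO and 65.5 ± 4.93 CPM in WT (SD, n = 3 each).

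Among hypoxia-induced genes, estimates went both ways. *Bnip3*, a mitophagy receptor and a classical HIF-1 target, had 56.6, 46.8 and 36.5 CPM in KO lungs, against 159, 103 and 81.8 CPM in WT lungs. It was 2.46-fold lower in KO (log2 fold change -1.30 ± 0.30, edgeR adjusted p = 0.236, DESeq2 adjusted p 0.0139). *Ankrd37*, an ankyrin-repeat gene induced by HIF-1, had 5.31, 19.0 and 6.66 CPM in KO lungs, against 23.8, 27.8 and 21.4 CPM in WT lungs. The groups did not overlap, but the estimate of -1.24 ± 0.50 was -2.02 without KO replicate 2, the library that came closest to WT. *Ankrd37* overlaps *Ufsp2* and *Lrp2bp* on the opposite strand, and since the strand setting of the counting is not given, their reads cannot be told apart there. The same holds for *Tpi1*, *Gapdh*, *Pfkm*, *Pfkp* and *Aldoa*, each of which overlaps a counted gene on the opposite strand. Over all libraries the overlapping gene had few counts beside the main *Aldoa* row (387 against 101271) and *Tpi1* (1825 against 35455). It had more beside *Pfkp* (9507 against 14021), *Gapdh* (3682 against 4015), *Pfkm* (7782 against 4265) and the second *Aldoa* row (387 against 113). For *Ankrd37*, *Ufsp2* had 6947 counts against 3433.

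The collagen prolyl 4-hydroxylase alpha subunits, which prepare procollagen for a stable triple helix, split. *P4ha2* had 32.8, 27.1 and 36.4 CPM in KO lungs, against 61.7, 58.3 and 43.5 CPM in WT lungs (log2 fold change -0.76 ± 0.21, edgeR adjusted p = 0.269). *P4ha1* had 88.5, 103 and 93.4 CPM in KO lungs, against 62.1, 80.1 and 71.3 CPM in WT lungs (0.42 ± 0.17, edgeR adjusted p = 0.417). Neither subunit overlapped between the genotypes, and *P4ha1* and *Pfkfb4* were the 2 members with all KO values above all WT values. *Adm*, the vasodilator peptide adrenomedullin, had 4.64 CPM in KO replicate 1 but 54.8 and 40.8 CPM in the other KO lungs, against 15.5 to 25.2 CPM in WT lungs. Its log2 fold change was 0.64 ± 0.77, and 1.16 without KO replicate 1. *Ndrg1*, a stress-induced gene of differentiation, averaged 68.9 ± 29.1 CPM in KO and 105 ± 14.1 CPM in WT (SD, n = 3 each).

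Promoter letters are shown for 5 members that bracket these results: *Pdk1*, *Egln3*, *Bnip3* and *Eno1*, which DESeq2 called lower, and *P4ha1*, which lay higher in KO. They are the members of those kinds whose RefSeq start lies within 14 bases of the GENCODE gene start. Each is 300 bases of GRCm38.p6 from RefSeq, 250 before and 50 after the start, written 5′ to 3′ on the gene's strand. Capitals mark ACGTG and GCGTG on either strand, the core letters of the hypoxia response element that HIF binds. CACGTG holds ACGTG on both strands and is also the E-box, which other factors bind.
Pdk1, chr2:71872974-71873273, plus strand: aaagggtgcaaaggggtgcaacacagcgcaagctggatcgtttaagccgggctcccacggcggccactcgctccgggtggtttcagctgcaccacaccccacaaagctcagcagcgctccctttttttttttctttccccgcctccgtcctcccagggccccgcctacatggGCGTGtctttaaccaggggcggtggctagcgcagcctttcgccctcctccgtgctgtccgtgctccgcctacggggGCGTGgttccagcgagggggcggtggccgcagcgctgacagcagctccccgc
Egln3, chr12:54203825-54204124, minus strand: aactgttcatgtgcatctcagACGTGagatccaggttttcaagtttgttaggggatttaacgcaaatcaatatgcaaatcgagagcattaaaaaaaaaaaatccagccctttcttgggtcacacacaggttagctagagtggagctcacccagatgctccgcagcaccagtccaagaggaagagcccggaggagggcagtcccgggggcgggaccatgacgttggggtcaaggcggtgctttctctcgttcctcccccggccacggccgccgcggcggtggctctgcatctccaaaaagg
Bnip3, chr7:138909457-138909756, minus strand: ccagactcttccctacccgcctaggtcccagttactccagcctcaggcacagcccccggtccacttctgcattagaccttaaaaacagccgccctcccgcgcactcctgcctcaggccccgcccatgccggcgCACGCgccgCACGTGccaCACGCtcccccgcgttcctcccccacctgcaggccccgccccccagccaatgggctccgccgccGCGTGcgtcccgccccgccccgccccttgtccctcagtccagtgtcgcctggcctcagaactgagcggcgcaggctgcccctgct
Eno1, chr4:150236458-150236757, plus strand: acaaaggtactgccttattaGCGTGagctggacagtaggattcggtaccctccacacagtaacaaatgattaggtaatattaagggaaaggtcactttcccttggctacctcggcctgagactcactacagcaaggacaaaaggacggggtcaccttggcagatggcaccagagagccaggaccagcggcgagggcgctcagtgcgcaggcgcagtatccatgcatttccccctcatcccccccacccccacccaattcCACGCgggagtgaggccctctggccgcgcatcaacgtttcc
P4ha1, chr10:59323046-59323345, plus strand: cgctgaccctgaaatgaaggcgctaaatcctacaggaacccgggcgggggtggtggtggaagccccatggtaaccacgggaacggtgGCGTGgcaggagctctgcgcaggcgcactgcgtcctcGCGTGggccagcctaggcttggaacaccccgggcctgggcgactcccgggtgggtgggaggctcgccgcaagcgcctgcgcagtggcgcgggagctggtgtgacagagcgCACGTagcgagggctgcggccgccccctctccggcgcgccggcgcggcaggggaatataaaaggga
*Bnip3* held 5 matches, 4 of them at offsets of -117 to -99 from the start, where a CACGTG counts once on each strand. *Pdk1* held 2, at -78 and -2, *Egln3* held 1 far from the start at -229, and *Eno1* held 2, at -230 and 9. *P4ha1*, which went the other way, held 3. A promoter window was found for 32 of the 35 genes, and *Slc2a3*, *Epas1* and *Ndrg1* had none in the table. Taking for each gene the window nearest its GENCODE start, 26 of 32 (81.2%) held at least 1 match, beside 43.8% of all 32851 windows of the same length. With ACGTG alone the counts were 19 of 32 (59.4%) and 19.6% of all windows. The members' windows were richer in G and C, with a median of 65% against 52.7% over all windows, and the part of base composition in these shares was not tested. The windows without a match were those of *Aldoa*, *Eno2*, *Gpi1*, *Hk1*, *Pkm* and *Tpi1*. This depends on the window taken, since *Aldoa*, *Hk1* and *Pkm* each have a match in another RefSeq window. A match describes letters, not binding.

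Levels per gene length show which isoform dominated each step. These are FPKM (fragments scaled to gene length and library size), deposited by the authors. The KO columns of the FPKM values have names with a suffix that no label explains, and were not matched to replicate numbers. *Pkm* was at 255 ± 48.3 FPKM in KO and 521 ± 127 FPKM in WT (SD, n = 3 each), and *Eno1* was at 131 ± 29.0 FPKM in KO and 289.8 ± 102 FPKM in WT. *Ldha* had 289.8 ± 64.0 FPKM in KO and 409 ± 131 FPKM in WT. *Epas1*, at 259 ± 66.8 FPKM in KO and 176 ± 54.4 FPKM in WT, was the only HIF-pathway member in that range, whereas *Egln3* averaged 1.12 ± 0.20 FPKM in KO and 3.04 ± 0.75 FPKM in WT. *Aldoa*, at 277 ± 64.7 FPKM in KO and 377 ± 106 FPKM in WT, completed the group of highest members. The FPKM means of *Ldha*, *Aldoa*, *Epas1* and *Pkm* in KO lay within 1 SD of each other. Within each of the 3 KO libraries the order was nevertheless *Ldha*, *Aldoa*, *Pkm*, and *Epas1* took different places. Within each of the 3 WT libraries *Pkm* was above *Ldha* and *Ldha* above *Aldoa*.

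**Figure D3:**
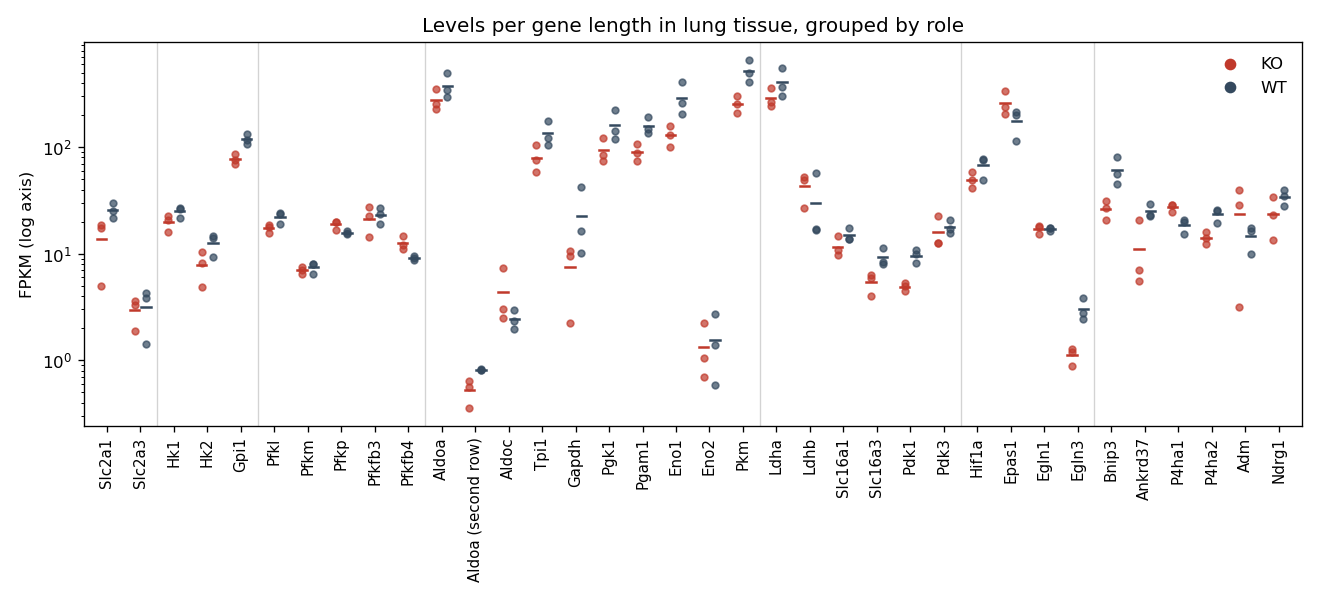
FPKM on a log axis for the 36 rows in 3 KO and 3 WT lungs, grouped by role, with short lines at the group means. From aldolase to lactate dehydrogenase the group means are 79.0 FPKM or above, except for *Gapdh*, *Aldoc*, *Eno2*, *Ldhb* and the second *Aldoa* row, and *Epas1* stands above the other HIF-pathway genes.

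Isoform shares of the summed FPKM were skewed at several steps. *Aldoa* made up 98.5% ± 0.54 of aldolase in KO and 99.4% ± 0.04 in WT, and *Eno1* 99.0% ± 0.62 of enolase in KO and 99.3% ± 0.59 in WT (SD, n = 3 each). *Ldha* was 87.1% ± 3.91 of lactate dehydrogenase in KO and 93.7% ± 2.63 in WT. Phosphofructokinase was more evenly divided than these steps. *Pfkl* made up 40.1% ± 0.35 of it in KO and 48.9% ± 4.40 in WT, and *Pfkp* 43.6% ± 0.84 in KO and 34.7% ± 2.49 in WT.

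Ratios between paralogues within a library do not depend on how libraries are scaled. Of 11 ratios compared, 6 did not overlap between the genotypes. The log2 ratio of *P4ha2* to *P4ha1* was -1.43, -1.92 and -1.36 in KO lungs, against -0.01, -0.46 and -0.71 in WT lungs, a difference of -1.18. That of *Epas1* to *Hif1a* was 2.54, 2.26 and 3.00 in KO lungs, against 1.44, 1.73 and 1.59 in WT lungs, a difference of 1.01. For *Pdk3* to *Pdk1* it was 0.79, 0.07 and 0.22 in KO lungs, against -0.22, -0.64 and -0.34 in WT lungs. The others without overlap were *Pfkp* to *Pfkl* (difference 0.60), *Aldoc* to *Aldoa* (1.11) and *Slc2a3* to *Slc2a1* (1.08), each with the KO ratios higher; without both first replicates the last was 0.37. The 2-sided exact permutation p was 0.1 for each of these 6, the smallest that 3 lungs against 3 can give, and 0.183 after Benjamini-Hochberg adjustment over the 11. *Ldha* to *Ldhb* (-1.18, exact permutation p 0.2), *Slc16a3* to *Slc16a1* (-0.55, exact permutation p 0.2) and *Hk2* to *Hk1* (-0.40, exact permutation p 0.3) overlapped, as did *Pfkm* to *Pfkl* and *Eno2* to *Eno1*.

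The lower glycolytic enzymes varied together within each genotype. KO replicate 1 was the highest KO lung for 7 of the 10 rows and WT replicate 1 the highest WT lung for 8 of them, while KO replicate 3 was the lowest KO lung for 8 and WT replicate 3 the lowest WT lung for 9. Both first replicates are the libraries unlike the rest, and the share of all genes with these orders was not computed. As a set the hypoxia-induced genes did not follow: KO replicate 1 was the lowest KO lung for 4 of those 6 genes and KO replicate 2 the highest for 4. *Bnip3* was an exception, falling from replicate 1 to replicate 3 in both genotypes. *Slc2a1* (16.9 CPM), *Adm* (4.64 CPM) and *Ndrg1* (40.6 CPM) were each lowest of all 6 lungs in KO replicate 1. Transcripts of mitochondrial genes made up 7.34% of that library and 2.69% to 3.87% of the other 5, and their part in these values was not tested. Erythroid markers were highest in replicate 1 of each genotype. They summed to 8013, 1248 and 1654 CPM in KO lungs, against 4690, 547 and 1297 CPM in WT lungs. Secretory airway markers were highest in WT replicate 1, at 11765 CPM, against 936 and 307 CPM in the other WT lungs. In KO lungs they summed to 1779 to 4493 CPM. The part of these cells in the members' values was not tested.

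**Figure D4:**
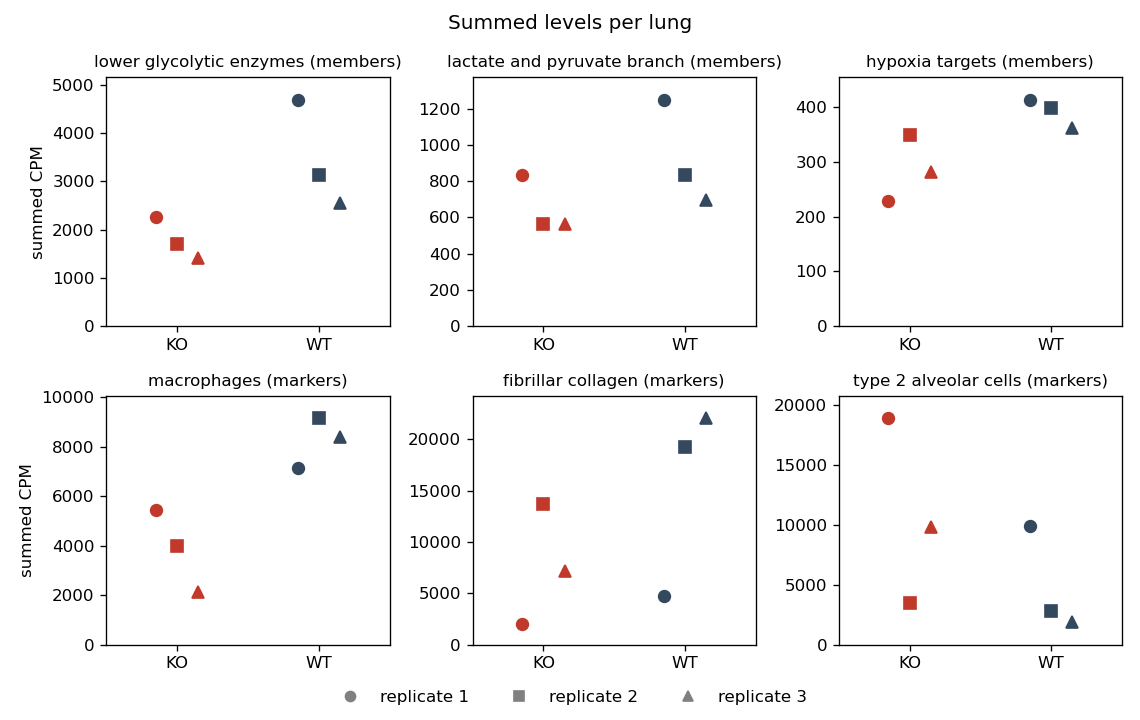
Summed CPM per lung for 3 classes of members (top) and for 3 lists of cell markers or matrix genes (bottom), KO left of WT, with the replicate number as the symbol. The lower glycolytic enzymes, the hypoxia-induced genes and the macrophage markers do not overlap between genotypes, whereas fibrillar collagen and type 2 alveolar markers do.

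Markers of other cells moved with genotype beside the members. The 10 macrophage markers all had negative estimates, 2 of them (*Msr1* and *Spp1*) at an unadjusted p under 0.05, and their sum was 5449, 3973 and 2149 CPM in KO lungs, against 7129, 9153 and 8399 CPM in WT lungs. Much of that sum was *Spp1*, osteopontin, at 3579, 2166 and 1108 CPM in KO lungs, against 4514, 7057 and 6209 CPM in WT lungs, while the log2 fold changes of the other 9 markers ran from -1.10 (*Msr1*) to -0.05 (*Csf1r*). Neutrophil markers summed to 110.4 to 177 CPM in KO and 185 to 231 CPM in WT. Of the 7 tested, 6 had negative estimates, 3 of them at an unadjusted p under 0.05. Capillary endothelial markers, relevant to *Epas1*, summed to 1632 to 3147 CPM in KO and 931 to 2617 CPM in WT and overlapped. Of their 10 estimates 9 were positive, 1 of them at an unadjusted p under 0.05. Fibrillar collagen genes, relevant to the *P4ha* genes, summed to 2061, 13748 and 7133 CPM in KO lungs, against 4763, 19303 and 22037 CPM in WT lungs. Replicate 1 was the lowest lung of each genotype, and the groups overlapped only through WT replicate 1. All 5 collagen estimates were negative, 0 of them at an unadjusted p under 0.05. T and NK cell markers summed to 30.99 to 53.0 CPM in KO and 7.92 to 14.8 CPM in WT, and all 8 were higher at an unadjusted p under 0.05. B cell markers summed to 52.1 to 70.8 CPM in KO and 18.0 to 39.1 CPM in WT, with 5 of 5 estimates positive and 3 at an unadjusted p under 0.05. Of all genes, 51% had negative and 49% positive estimates, and at that level 5.89% were lower and 5.95% higher. Skeletal muscle markers, for *Pfkm*, summed to 6.10 to 8.05 CPM in KO and 2.77 to 5.84 CPM in WT, with *Myh2* and *Myh4* at 0 in all 6 libraries. Most of the KO sum was *Ckm*, at 5.97, 3.16 and 5.95 CPM in KO lungs, against 1.17, 0.49 and 0.96 CPM in WT lungs, and the other 3 markers tested had negative estimates. The part of any of these cells in the members' values was not tested.

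Of the members, 6 lie on chromosome 6 with *Clec7a* (129461591 to 129472779 on GRCm38). *Gapdh* is 4.295 Mb away, *Tpi1* 4.65 Mb, *Eno2* 4.69 Mb, *Slc2a3* 6.66 Mb, *Ldhb* 13.0 Mb and *Hk2* 46.7 Mb. Their log2 fold changes were negative for 5 of the 6, beside 29 of all 36 rows and 51% of all genes. The negative ones ran from -1.86 for *Gapdh*, whose row is uncertain, to -0.15 ± 0.61 for *Eno2*. The estimate was positive for *Ldhb* (0.42 ± 0.58). The part of sequence linked to the *Clec7a* allele in these values was not tested. For orientation, *Pdk1* lies on chromosome 2 from 71873224 to 71903858 (plus strand), *Pkm* on chromosome 9 from 59656368 to 59679375 (plus strand) and *Slc16a3* on chromosome 11 from 120948480 to 120960868 (plus strand), all protein coding in GENCODE M21.

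Genes of the same pathways outside the 35 were read from 2 further lists. Of 33 other glycolysis and pyruvate genes 31 were tested, 9 with positive and 22 with negative estimates and a median of -0.12. edgeR called 0 (adjusted p of 0.380 or more), 4 were lower (5.89% of all genes) and 2 higher (5.95% of all genes) at an unadjusted p under 0.05, and DESeq2 called 0. The 4 with the smallest p were the transporters *Slc2a9* (-0.71 ± 0.26) and *Slc2a4* (-1.13 ± 0.45), the phosphopentomutase gene *Pgm2* (-0.40 ± 0.16) and *Dlat* (-0.41 ± 0.17), a subunit of pyruvate dehydrogenase. Of 42 other HIF and hypoxia-induced genes 40 were tested, with a median of -0.19. At an unadjusted p under 0.05, 8 were lower (5.89% of all genes) and 2 higher (5.95% of all genes), so the higher ones were near the share over all genes. edgeR called 0 of these, and DESeq2 called 4 lower (1.73% of all genes): *Hmox1*, *Lox*, *Loxl2* and *Ddit4*.

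*Hmox1*, heme oxygenase 1, an enzyme of heme breakdown that responds to oxidative stress as well as hypoxia, led that list. It had 126, 69.1 and 65.1 CPM in KO lungs, against 861, 328 and 349 CPM in WT lungs, and was 5.91-fold lower in KO (log2 fold change -2.56 ± 0.50, edgeR adjusted p = 0.216, DESeq2 adjusted p 4.93e-05). Every KO value was below every WT value by a wide margin. By edgeR's unadjusted p the next were *Mxi1* (-0.64 ± 0.17), a MYC antagonist, *Ddit4* (-1.36 ± 0.40), an inhibitor of mTORC1, and *Lox* (-1.43 ± 0.42), the collagen-crosslinking lysyl oxidase. *Loxl2*, a relative of *Lox* named after its values were seen, had a log2 fold change of -2.11 ± 0.74 (edgeR adjusted p = 0.360, DESeq2 adjusted p 0.0449), with groups that overlapped.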

How the data were processed

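Per the labels' protocols, TRIzol was used for the RNA and NEBNext Ultra for the libraries. The authors deposited unnormalized whole-number counts for each gene and, apart from these, FPKM values. The submitters' processing notes list HISAT2 2.0.4, StringTie 1.3.4d and GRCm38 but not what each was used for. No source used here states the counting settings, the strand or the treatment of shared reads, so genes with near-identical copies and overlapping genes are uncertain. The table also holds 4064 models named as new genes.

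Counts were tested mainly with edgeR (version 4.0.16 in R 4.3.3): filterByExpr, TMM scaling and its quasi-likelihood fit in robust mode, with no covariate beside genotype, 2-sided, with Benjamini-Hochberg adjustment over all 16633 rows and a threshold of 0.05. Each SE was derived from the F statistic, as the size of the log2 fold change divided by its square root. Alternatives were DESeq2 (1.42.0), limma-voom (limma 3.58.1), alone or weighting the samples, other scalings and filters, the replicate number as a block, limma on log2(FPKM + 1) and log2(FPKM + 0.1), and each library left out. The fits on FPKM kept genes that reached 0.5 FPKM in 3 or more libraries, or all genes. Scripts were tested on simulated data. Paralogue ratios added 0.5 counts to each gene. Coordinates are from GENCODE M21 (GRCm38). The members and all lists were chosen with earlier results of these data known. Every member is described; values of each library are printed for members with an unadjusted p under 0.05 or groups that do not overlap, and for the member of highest FPKM in each role. The p-values of the fits set the genotype difference against the spread between these 6 mice within each genotype. The exact permutation p rests on relabelling the lungs.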

Additional observations from a re-analysis of the deposited data

How the results depend on the processing

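The count of members called over all genes rested on the test. It was 0 in either direction with edgeR under each scaling, filter and left-out library tried, with limma-voom and with limma on FPKM. DESeq2 called 6 members lower, among 356 genes higher and 322 lower over the whole table, and limma-voom with sample weights called 14 lower, among 1204 higher and 1017 lower. Without both first replicates edgeR called 18 genes higher and 28 lower over the table, and with 1 library left out 0 to 1 higher and 0 to 2 lower, none of them members. The direction was steadier: 26 to 29 of 36 rows had negative estimates under the alternatives that tested all rows, and 28 of 35 with a filter of 1 CPM in 3 libraries, which dropped the second *Aldoa* row.

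At an unadjusted p under 0.05, 21 members were lower with sample weights and 21 with the replicate number as a block, where 16.1% and 11.5% of all genes were. Same-numbered lungs correlated at 0.351, 0.350 and -0.0988 in their deviations from the group means, and other pairs at -0.512 to 0.468. Deviations of 3 lungs from their own mean sum to 0, so these values cannot decide whether the numbers pair the lungs. The 1 member higher at that level became 0 with DESeq2 and without a filter, 3 with sample weights, 2 with total counts, 2 with the block and 2 in each limma fit on FPKM, 4 without both first replicates, and 0 to 2 with 1 library left out, against 9 to 14 lower. Of all genes, 3.11% to 17% were higher at that level under these settings. With 1 library left out, 3.21% to 6.71% of all genes were lower. Groups that did not overlap numbered 2 to 4 higher and 14 to 20 lower with 1 library left out. Of all genes, 11.1% to 19.9% were then higher and 12.8% to 22.3% lower without overlap. Without both first replicates the counts were 6 and 25, where 30.8% and 33.2% of all genes did not overlap. The Egln1 log2 fold change KO minus WT turned to 0.00503 with sample weights and 0.053 without both first replicates, and ran from -0.12 to -0.0070 with 1 library left out. With 1 library left out *Slc2a3* ran from -0.50 to 0.087, *Pfkfb3* from -0.40 to 0.024 and *Eno2* from -0.70 to 0.46, positive without KO replicate 1 in all 3 and without WT replicate 3 in *Slc2a3* and *Eno2*. Other scalings moved the median of all genes by less than 0.1. The cause of these shifts was not tested.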

Other observations

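Genes around the members were not uniformly lower, as a few from the further lists above show. They are already counted there and were chosen here after their values were seen. The oxidative arm of the pentose phosphate pathway was represented by *G6pdx* (log2 fold change -0.27 ± 0.25) and *Pgd* (-0.35 ± 0.26), and its non-oxidative arm by *Tkt* (-0.03 ± 0.19) and *Taldo1* (0.16 ± 0.35). The mitochondrial pyruvate carrier genes *Mpc1* (-0.10 ± 0.51) and *Mpc2* (-0.03 ± 0.41) and the pyruvate dehydrogenase subunit gene *Pdha1* (-0.23 ± 0.19) also lay close to 0. *Vegfa*, the angiogenic growth factor and a HIF target, had the opposite sign to *Bnip3* and *Egln3*, at 546, 384 and 647 CPM in KO lungs, against 333, 286 and 288 CPM in WT lungs (0.80 ± 0.25, edgeR adjusted p = 0.312). *Vegfa* is also made by type 1 alveolar cells, whose 6 markers all had positive estimates and summed to 1353 to 5265 CPM in KO and 922 to 3515 CPM in WT, and their part in it was not tested. *Bnip3l*, the close relative of *Bnip3* in mitophagy, had a log2 fold change of -0.07 ± 0.32.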
